A study of Mus musculus with 27 samples.

Results

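The 10 genes described here encode proteins that maturing neutrophils make in large amounts: S100a8, S100a9, Ngp, Ltf, Lcn2, Camp, Chil3, Ly6g, Mmp8 and Mmp9. They were taken by name, as secondary (specific) granule, gelatinase granule, S100 and surface genes of the neutrophil line, and each had exactly 1 probe set annotated with its symbol alone, so all 10 of 10 were measured among 19935 genes. The cells were bone marrow cells of C57BL/6 mice aged 8 to 12 weeks, hybridised as total RNA to 27 one-colour Affymetrix arrays, 3 biological replicates in each of 9 groups. In 4 groups, cells were cultured for 12 h, 24 h, 48 h or 11 days with Flt3 ligand (Flt3-L, about 200 ng/ml, made by transfected B16 tumour cells) and with cyclosporin A (CsA, 2 µg/ml), which was given 30 min ahead of Flt3-L and then kept in the medium. In another 4 groups, cells were cultured with Flt3-L alone for the same times, and the last group was unstimulated cells, for which the labels do not state whether they were fresh or kept in culture. No vehicle is named for the cultures without CsA, and no group had CsA without Flt3-L. All cultures were whole marrow without a sort, and the labels do not state whether replicates came from separate mice, so p-values measure the spread between these samples.

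Neutrophils build their granules in sequence as they mature in the marrow. Primary granules with myeloperoxidase and elastase come first, at the promyelocyte stage, then the secondary granules with lactoferrin, lipocalin 2 and cathelicidin, and then gelatinase granules, while the S100 proteins fill the cytosol. C/EBP transcription factors, C/EBP-epsilon above all, are known to drive secondary granule genes. Flt3-L drives marrow progenitors toward dendritic cells, and CsA blocks calcineurin, the phosphatase that lets NFAT factors enter the nucleus.

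Promoter sequence from RefSeq (mouse GRCm38.p6) was found for 9 of the 10 genes. The 250 bases before the start are printed for 5 of them: Ngp, Lcn2 and S100a8, which had the largest differences with CsA at 11 days, Camp, which alone had no difference that passed the test there, and Ly6g, the gene that passed the test with CsA at 24 h and 48 h. They lie at chr9:110419558-110419807 on the plus strand for Ngp, chr2:32387740-32387989 on the minus strand for Lcn2, chr3:90668821-90669070 on the plus strand for S100a8, chr9:109849457-109849706 on the minus strand for Camp, and chr15:75155011-75155260 on the plus strand for the first of the Ly6g starts. Each is written 5′ to 3′ along its gene, and capitals mark matches to the C/EBP core TTNNGNAA or its reverse complement.
Ngp: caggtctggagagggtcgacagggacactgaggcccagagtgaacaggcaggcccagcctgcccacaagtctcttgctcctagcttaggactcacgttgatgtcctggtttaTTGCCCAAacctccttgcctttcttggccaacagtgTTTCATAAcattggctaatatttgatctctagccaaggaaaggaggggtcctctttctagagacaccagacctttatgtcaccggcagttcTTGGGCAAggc
Lcn2: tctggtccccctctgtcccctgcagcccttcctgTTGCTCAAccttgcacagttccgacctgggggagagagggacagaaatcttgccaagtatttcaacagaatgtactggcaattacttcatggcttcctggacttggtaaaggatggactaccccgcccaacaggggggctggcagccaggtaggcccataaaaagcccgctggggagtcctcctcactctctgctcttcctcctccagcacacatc
S100a8: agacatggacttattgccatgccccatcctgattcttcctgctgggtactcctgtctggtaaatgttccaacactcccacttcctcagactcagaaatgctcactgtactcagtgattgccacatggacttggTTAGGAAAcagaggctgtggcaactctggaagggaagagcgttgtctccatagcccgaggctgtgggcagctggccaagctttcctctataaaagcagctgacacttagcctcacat
Camp: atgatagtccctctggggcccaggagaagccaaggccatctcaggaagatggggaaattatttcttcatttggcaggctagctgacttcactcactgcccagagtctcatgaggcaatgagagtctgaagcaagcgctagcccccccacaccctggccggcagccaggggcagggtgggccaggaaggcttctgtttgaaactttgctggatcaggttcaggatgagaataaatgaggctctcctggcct
Ly6g: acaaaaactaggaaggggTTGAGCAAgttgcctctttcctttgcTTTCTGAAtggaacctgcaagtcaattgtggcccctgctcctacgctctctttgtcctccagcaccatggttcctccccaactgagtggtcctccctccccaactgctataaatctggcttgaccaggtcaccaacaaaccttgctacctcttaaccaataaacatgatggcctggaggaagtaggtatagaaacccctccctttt

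The C/EBP core TTNNGNAA was matched on either strand in 8 of the 9 promoters, all but that of Camp, and in 36.8% of 32851 mouse promoters of the same length. The Ngp stretch holds 3 matches, Ly6g has 2, and Lcn2 and S100a8 have 1 each. The short PU.1 letters GAGGAA were found in 5 of 9 promoters against 23.3% of all, and the NFAT core GGAAA in 7 of 9 against 55.6% of all. The AP-1 letters TGANTCA were found in 0 of 9, against 6.75% of all. GGAAA can overlap both GAGGAA and the C/EBP core, and a match describes the letters only.

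Deposited signals run from 5.2 to 18180.7 on a linear scale, array medians lay between 114.2 and 124.8, and the lower quartile of probe sets averaged 44.3. Within groups, arrays correlated at 0.9966 or more, and the nearest array was a replicate for 26 of 27 arrays. CsA 12 h replicate 3 was instead nearest to replicate 3 of Flt3-L alone at 12 h. The unstimulated cells carried marrow markers of several lines: summed signals were 24283 to 26832.1 over 6 erythroid genes, 11782.1 to 12591.2 over 7 B lineage genes and 28620 to 30543.6 over 9 primary granule genes. Signals of different probe sets are not set against each other here, and in unsorted cultures fewer cells of a type and less RNA per cell cannot be told apart.

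Through the first 48 h, all 10 genes stayed bright in both kinds of culture, and 9 of them kept a narrower range than Ly6g. Across the 21 arrays from unstimulated cells to 48 h, the brightest array of Lcn2, the siderophore-binding lipocalin, was 1.15 times the dimmest (8056.4 to 9245.0). The same ratio was 1.27 for S100a8 (5052.4 to 6432.9) and 1.26 for S100a9 (4956.6 to 6222.8), the calcium-binding partners that form calprotectin. It was also 1.26 for Ngp, the neutrophilic granule protein of the cathelicidin and cystatin superfamily, and 1.31 for the iron-binding lactoferrin gene Ltf. Chil3, a chitinase-like lectin that mouse macrophages can also make, had a ratio of 1.37, and Mmp8, the neutrophil collagenase, 1.38. Camp, the cathelicidin antimicrobial peptide gene, had 1.56 and Mmp9, the gelatinase of late granules and of macrophages, 1.61. Ly6g, the GPI-anchored surface protein by which mouse neutrophils are stained, was the exception with a ratio of 3.70 (1501.2 to 5548.1).

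Between 48 h and 11 days the signals collapsed. On the 6 arrays at 11 days, Chil3 lay between 18.2 and 47.4, Ly6g between 22.2 and 80.7, and Camp between 96.4 and 132.8. Mmp8 lay between 622.2 and 1297.0 and Mmp9 between 673.6 and 2183.6. No array at 11 days reached the lowest earlier array for any of the 10 genes.

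**Figure D1:**
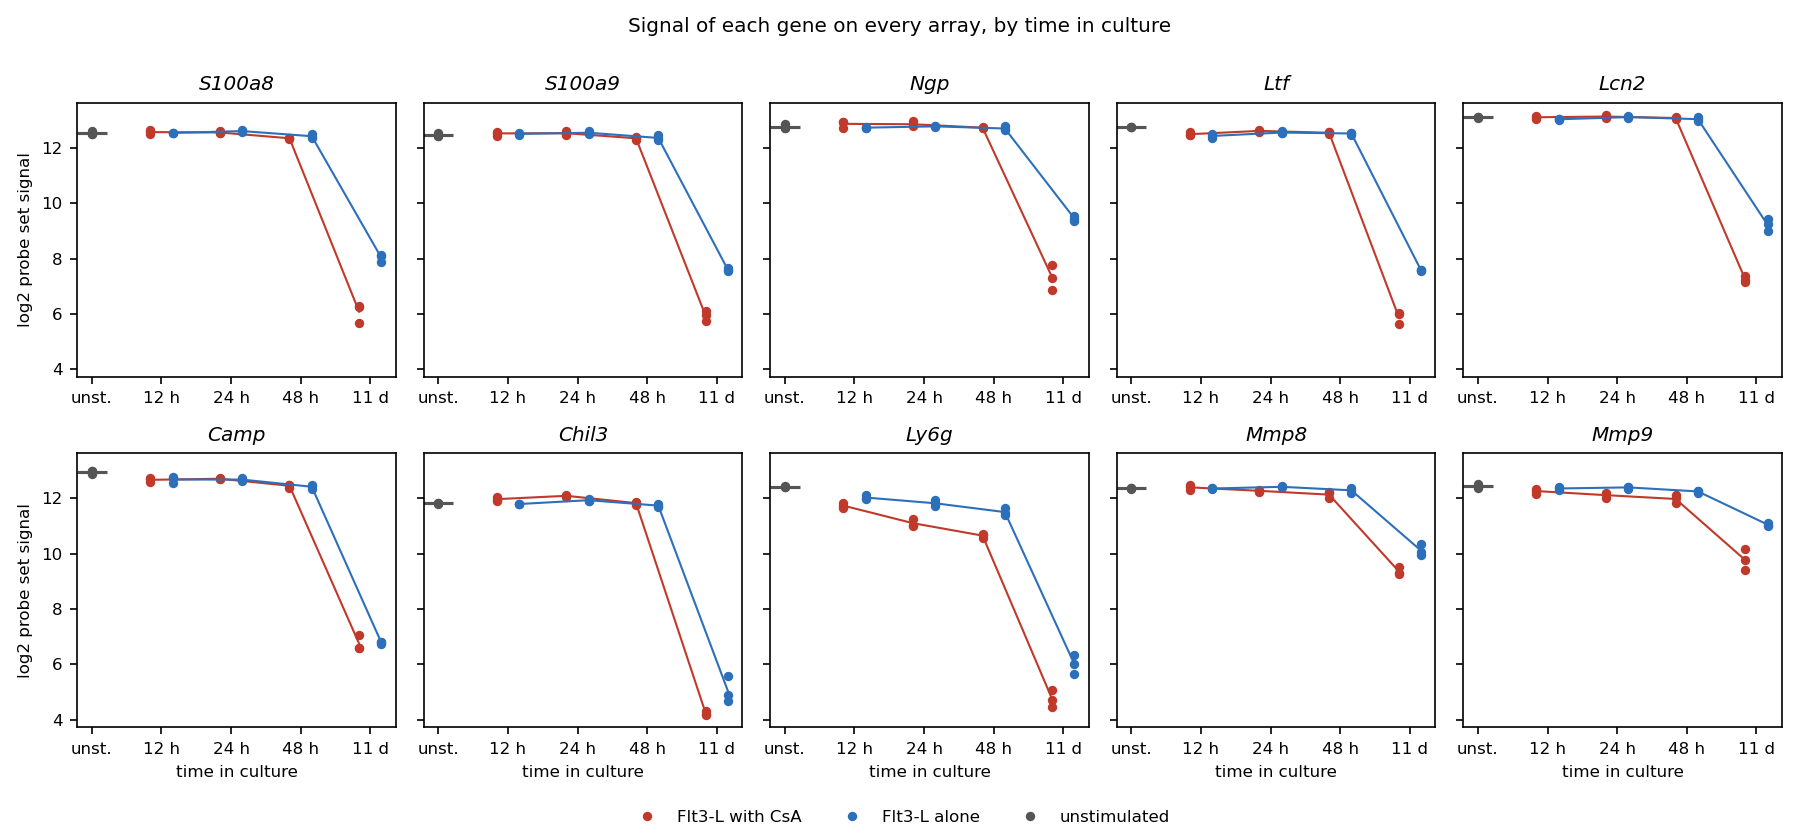
Signal of each of the 10 genes on every array (log axis) against time in culture, one panel per gene, with unstimulated cells at the left; points are arrays of the cultures with Flt3-L and CsA or with Flt3-L alone, and lines join group means. The curves run nearly flat to 48 h except for Ly6g, fall by 11 days, and there the CsA points lie lowest in every panel but that of Camp, where the groups overlap.

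After 11 days with CsA, 9 of the 10 genes were lower than after 11 days with Flt3-L alone (limma, adjusted p under 0.05), where 7.08% of all genes were lower. The median log2 difference was -1.47 over the 10 genes and 0.03 over all genes tested. Folds among the 7 of them other than Chil3 and Ly6g ran between 1.68 and 4.36, and Camp was the gene that did not pass. For each of the 9, the 3 CsA arrays lay below the 3 arrays without CsA, which held for 12.6% of all genes.

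The S100 pair moved together. S100a8 gave 51.6, 76.4 and 78.8 with CsA at 11 days, against 232.3, 273.2 and 280.0 with Flt3-L alone. S100a9 gave 68.4, 62.3 and 53.5 with CsA, against 191.6, 185.2 and 203.8 with Flt3-L alone. Neither pair of groups overlapped. The CsA signals lay little above the lower quartile of probe sets (44.3), where background was not measured. Folds of this pair therefore describe signal and set no bound on RNA. The log2 difference was -1.95 ± 0.10 (SE, n = 3 arrays each; adjusted p = 4.87e-13, limma) for S100a8, a 3.85-fold lower signal. For S100a9 it was -1.66 ± 0.07 (adjusted p = 1.7e-14, limma), or 3.17-fold lower.

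The signals of the secondary granule genes divided. Ngp gave 158.6, 219.8 and 117.2 with CsA, against 686.5, 659.5 and 746.0 with Flt3-L alone. This was the largest difference in signal of the 10, -2.12 ± 0.12 on the log2 scale or 4.36-fold lower (SE, n = 3 each; adjusted p = 5.43e-12, limma). The log2 SD of Ngp was 0.45 with CsA and 0.09 with Flt3-L alone, and its adjusted p ran up to 0.00204 over the alternatives (limma). Lcn2 gave 142.9, 165.6 and 148.4 with CsA, against 508.2, 607.7 and 690.2 with Flt3-L alone, and was 3.93-fold lower (-1.97 ± 0.07, adjusted p = 1.6e-15, limma). Both genes showed a wide gap between the groups, as the lactoferrin gene did. Ltf gave 64.0, 66.1 and 49.9 with CsA, against 194.0, 188.5 and 192.5 with Flt3-L alone, and was 3.22-fold lower (-1.69 ± 0.07, adjusted p = 1.3e-14, limma). The Ltf signals with CsA lay little above the lower quartile of probe sets (44.3), so its fold sets no bound on RNA. The log2 SD of Ltf was 0.22 with CsA and 0.02 with Flt3-L alone. Over the alternatives, adjusted p ran up to 0.00046 for Ltf and 0.00028 for Lcn2 (limma).

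Camp, whose protein belongs to the same superfamily as Ngp and is stored in the same granules, had no such gap. It gave 96.4, 132.8 and 97.1 with CsA, against 105.6, 111.9 and 113.2 with Flt3-L alone. CsA replicates 1 and 3 were below all 3 arrays without CsA and replicate 2 was above all of them. The log2 difference was -0.04 ± 0.08, with a 95% interval of -0.21 to 0.14 (adjusted p = 0.843, limma). Without CsA 11 d replicate 2 it was -0.19 (adjusted p = 0.0814, limma), and over the alternatives the adjusted p ran between that and 0.96. The interval with all arrays takes its spread from all groups. On that spread it leaves out a fall in signal as large as any of the 9 others. The log2 SD of Camp was 0.26 with CsA and 0.05 with Flt3-L alone. Whether an interval from the spread of these groups alone would leave out such a fall was not tested. Background was not measured on these arrays, so the interval sets no bound on a further fall of Camp RNA. In unstimulated cells the Camp signals had been 7515.8, 8021.9 and 8033.8, so the gene had fallen far in both cultures.

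Chil3 was close to the bottom of the scale at 11 days. It gave 20.1, 18.2 and 18.5 with CsA, against 25.4, 29.5 and 47.4 with Flt3-L alone, nearly all below the lower quartile of probe sets. The groups did not overlap and the log2 difference was -0.80 ± 0.12 (adjusted p = 3.25e-05, limma), but the arrays without CsA were themselves spread and background was not measured on these arrays. Ly6g gave 26.0, 33.4 and 22.2 with CsA, against 80.7, 50.0 and 65.3 with Flt3-L alone. The log2 difference was -1.26 ± 0.13 (adjusted p = 8.94e-08, limma), again without overlap. For Ly6g the adjusted p ran up to 0.0159 over the alternatives (limma). The CsA arrays lay below the lower quartile of probe sets, so how far Ly6g fell is not bounded, and no fold is given for either gene.

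Both metalloproteinase genes were lower with CsA at 11 days. Mmp9 gave 865.5, 1134.9 and 673.6 with CsA, against 2183.6, 2063.5 and 2113.9 with Flt3-L alone. Every CsA array was well below the tight group without it, and the gene was 2.43-fold lower (-1.28 ± 0.11, adjusted p = 4.65e-09, limma). Mmp8 gave 629.4, 730.1 and 622.2 with CsA, against 982.9, 1057.4 and 1297.0 with Flt3-L alone. Its groups did not overlap and it was 1.68-fold lower, with a log2 difference of -0.75 ± 0.08 (adjusted p = 1.32e-07, limma). The log2 SD of Mmp9 was 0.38 with CsA and 0.04 with Flt3-L alone. Over the alternatives, adjusted p ran up to 0.00456 for Mmp9 and 0.0107 for Mmp8 (limma).

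**Figure D2:**
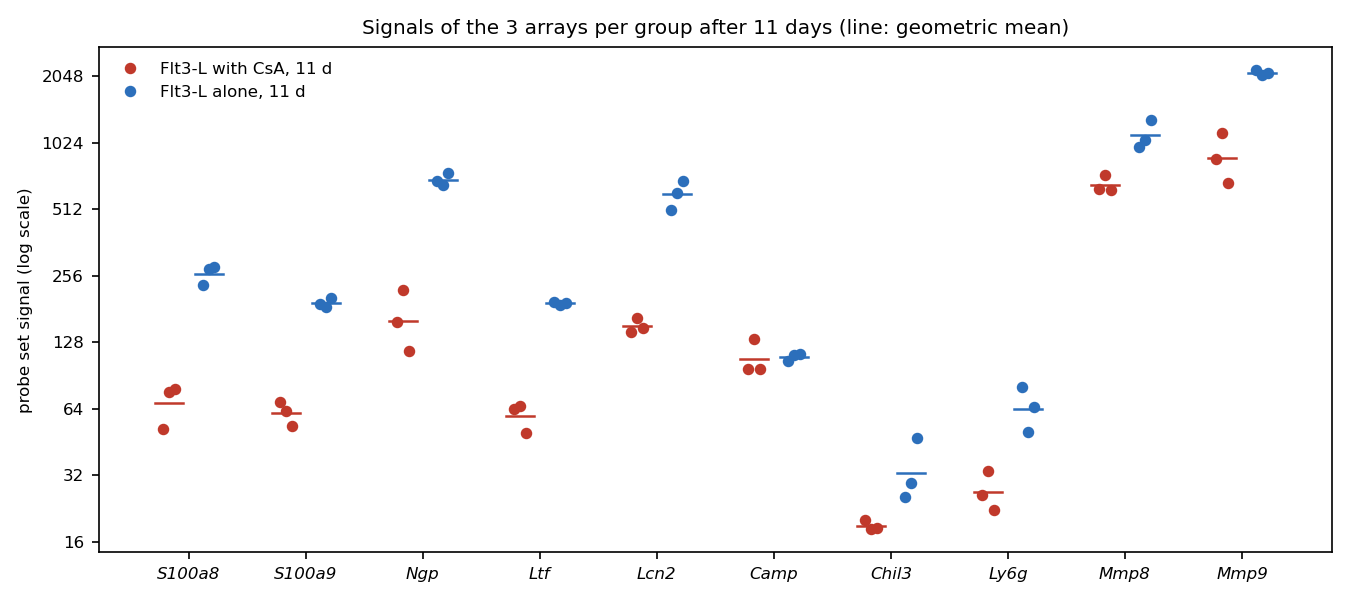
Probe set signal (log axis) of each of the 10 genes on the 3 arrays with CsA and the 3 with Flt3-L alone after 11 days; the short lines are geometric means. For 9 genes the CsA points lie below all points without CsA, and for Camp the CsA points at 96.4 to 132.8 span those without CsA at 105.6 to 113.2.

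Signal of other cells changed at 11 days too, where 7.08% of all genes were lower with CsA and 4.92% higher. The summed signal of the 10 genes was 1881.4 to 2639.6 with CsA, against 5190.8 to 5749.3 with Flt3-L alone. That sum is mostly Mmp9 and Mmp8, with mean signals of 891.3 and 660.6 with CsA and 2120.3 and 1112.4 with Flt3-L alone. Over 10 conventional dendritic cell markers the sum was 8905.6 to 11199.1 with CsA, against 15442.3 to 16710.3 with Flt3-L alone, and 9 of the 10 were lower, Clec9a (-1.63), Xcr1 (-1.49) and Itgax (-1.20) among them. Over 7 B lineage genes it was 552.3 to 594 with CsA, against 1676.8 to 2154.7 with Flt3-L alone, with 5 lower. Over 8 eosinophil, basophil and mast cell genes it was 553.4 to 576.6 with CsA, against 824.4 to 943 with Flt3-L alone, with 6 lower. The sum of 9 macrophage markers was 54557.1 to 54707 with CsA, against 50656.7 to 51910 with Flt3-L alone, with none of the 9 passing the test. Over 7 monocyte markers, sums overlapped at 9854.2 to 10315.2 with CsA, against 9760 to 10426.9 with Flt3-L alone, while 4 were lower, Ccr2 (-1.21) and F13a1 (-0.73) among them, and 1 was higher, though not without Flt3-L 11 d replicate 1. Over 6 progenitor genes the sum was 635 to 771 with CsA, against 956.4 to 991.8 with Flt3-L alone, with 3 lower, Cd34 (-1.22) and Kit (-1.04) among them, and 1 higher, which was lost under some alternatives. Over 7 T and NK cell genes it was 472.8 to 489.6 with CsA, against 622.3 to 751 with Flt3-L alone, with 4 lower (2 to 4 over the alternatives). Plasmacytoid dendritic cell, erythroid and stromal sums overlapped, but plasmacytoid genes moved both ways. The mean log2 signal of Spib was 7.416 with CsA and 9.002 with Flt3-L alone. That of Siglech was 7.652 with CsA and 8.217 with Flt3-L alone, and that of Ccr9 8.107 and 8.715. Cox6a2 was instead at 9.573 with CsA and 7.945 with Flt3-L alone. Of the other plasmacytoid genes, Irf7 had a lower mean with CsA, and Bst2, Tcf4 and Pacsin1 higher means. The part of these shifts in the result for the granule genes was not tested.

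Further neutrophil genes were measured in 3 lists at 11 days, which were not tested against the 10. Among all genes, 7.08% were lower with CsA at that time and 4.92% higher. Of 15 further granule genes, 6 were lower with CsA at 11 days, with a median log2 difference of -0.10. Mean log2 signals of the 15 with Flt3-L alone ran between 6.15 and 13.07, with a median of 7.39. Whether a further fall of the dim ones could show was not tested. Mmp25, a membrane-anchored metalloproteinase of neutrophils, was at -1.10 ± 0.15, Chil1, a chitinase-like protein of secondary granules, at -1.09 ± 0.08, and Pglyrp1, a peptidoglycan-binding granule protein, at -1.07 ± 0.06 (log2 difference and SE). Of 9 primary granule genes, 4 were lower, with a median of -0.20. Their differences were small: Serpinb1a, a protease inhibitor, was at -0.45 and Mpo, myeloperoxidase, at -0.31. The summed signal overlapped at 3313.6 to 3575.7 with CsA, against 2972.9 to 3501.7 with Flt3-L alone. That sum is mostly Ctsc, at a mean log2 signal of 11.47 with CsA and 11.25 with Flt3-L alone. The list was mostly dim already with Flt3-L alone (median log2 signal 6.56), and whether a further fall could show was not tested. Of 13 receptor and late neutrophil genes, 5 were lower and 1 higher, with a median of -0.20. Retnlg, a resistin-like protein of neutrophils, was at -1.29 ± 0.09, the integrin gene Itgam at -1.06 ± 0.05 and the chemokine receptor gene Cxcr2 at -1.04 ± 0.11. Csf3r, the G-CSF receptor gene, was the 1 that was higher (0.45 ± 0.08, adjusted p = 0.000347, limma). With only the compared groups in the fit, 2 primary granule genes and 3 receptor and late genes were lower.

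Families of the 10 genes were mixed at 11 days, where 7.08% of all genes were lower with CsA and 4.92% higher. Of 14 other S100 genes, 4 were lower with CsA and none higher, S100a4 at -1.27 ± 0.08 and S100a6 at -1.21 ± 0.09, both made by many cell types. Of 20 other metalloproteinase and inhibitor genes, 4 were lower and 1 higher, with a median of 0.03. Collagenase 3, Mmp13, was at -2.01 ± 0.12 and Mmp19 at -0.81 ± 0.09, while Mmp27 was at 0.57 ± 0.11, and 2 were higher without Flt3-L 11 d replicate 3, CsA 11 d replicate 1 or CsA 11 d replicate 2. Ly6 relatives were lower in 3 of 6 cases, Ly6d at -1.34 ± 0.13 and Ly6i at -1.31 ± 0.18. Of 10 factors of granulocyte development, 2 were lower, Cebpb at -0.31 ± 0.08 and Runx1 at -0.15 ± 0.04. Without any 1 of Flt3-L 11 d replicates 1, 2 and 3 or CsA 11 d replicates 1 and 2, 1 of the list was lower, and with only the compared groups in the fit 0 were. Cebpe, the factor best known for secondary granules, was at -0.25 ± 0.09 and did not pass (adjusted p = 0.0919, limma). Among 7 genes for receptors of the secreted products, Tlr4, which calprotectin can engage, was higher (0.36 ± 0.09), and no other passed with all arrays.

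**Figure D3:**
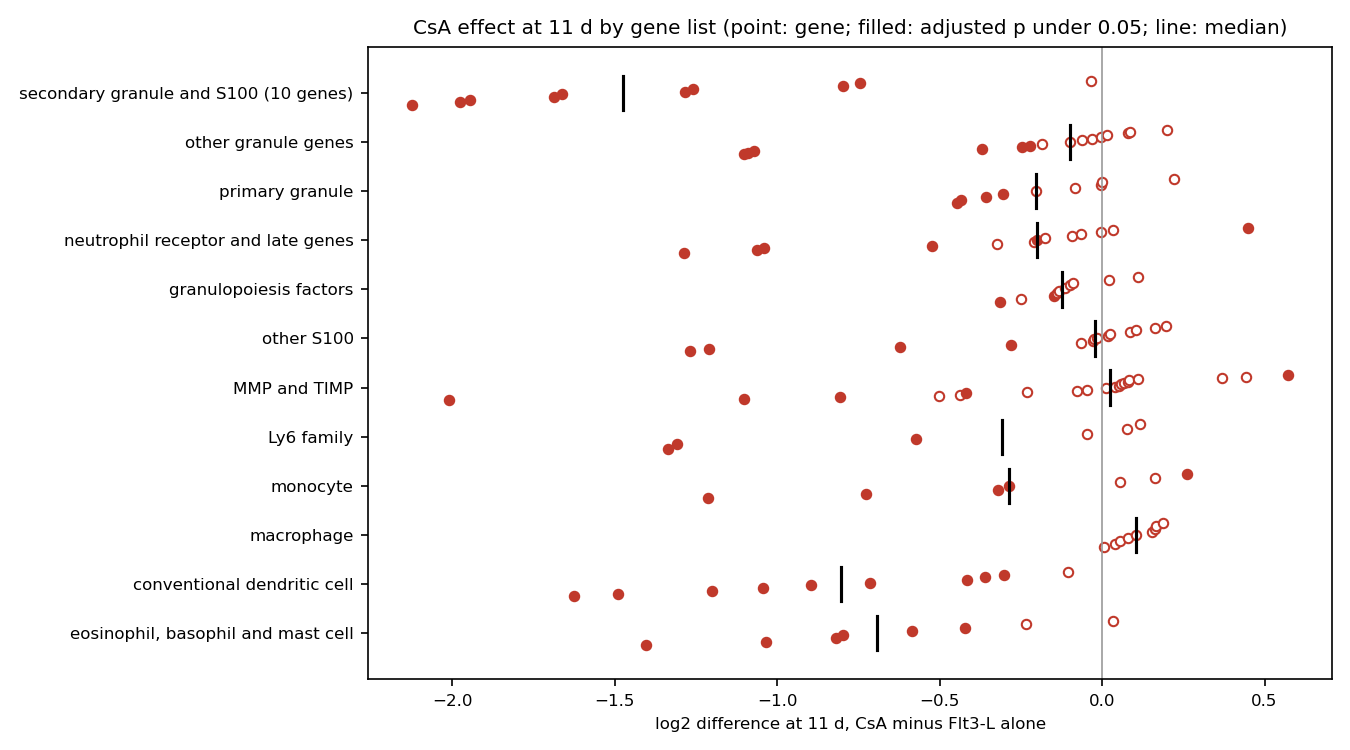
Log2 difference at 11 days, CsA minus Flt3-L alone, for each gene of the lists described; points are genes, filled where adjusted p was under 0.05, and lines are list medians. The 10 granule and S100 genes have a median of -1.47, against -0.10 for other granule genes and -0.20 for primary granule genes. Primary granule genes were mostly dim already with Flt3-L alone (median log2 signal 6.56), and other granule genes in part (6.15 to 13.07, median 7.39). How far dim signals limit a fall in either list was not tested.

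At 12 h, 24 h and 48 h, Ly6g was the 1 of the 10 genes that passed the test with CsA, at 24 h and 48 h. At 12 h, 0 of 10 passed (limma; 6.73% of all genes did, 3.91% as lower), and 1 of 10, Ly6g, had an unadjusted p under 0.05. Ly6g gave 3218.8, 3634.1 and 3368.4 with CsA at 12 h, against 4392.0, 4032.2 and 4085.4 with Flt3-L alone. The groups did not overlap, as held in the lower direction for 16.3% of all genes. The log2 difference of -0.29 ± 0.13 did not pass (adjusted p = 0.155, limma). With weights for array quality it did, at adjusted p = 0.0373 (limma), and over all alternatives its adjusted p ran between 0.0373 and 0.337.

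At 24 h, Ly6g gave 2049.0, 2121.4 and 2427.5 with CsA, against 3353.7, 3609.4 and 3879.3 with Flt3-L alone. All CsA arrays lay below all others, and the log2 difference was -0.72 ± 0.13 (SE, n = 3 each; adjusted p = 0.00117, limma), 1.64-fold lower. It was the 1 of 10 genes that passed, where 2.19% of all genes were lower. At 48 h, Ly6g gave 1501.2, 1687.8 and 1635.8 with CsA, against 2663.3, 2822.7 and 3225.8 with Flt3-L alone. The difference was -0.85 ± 0.13 (adjusted p = 0.000154, limma), 1.80-fold lower and without overlap, and Ly6g again was the 1 of 10 that passed, where 2.34% of all genes were lower.

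Mmp9 leaned the same way without passing. It gave 4068.6, 4698.2 and 4522.3 with CsA at 24 h, against 5193.0, 5471.5 and 5449.1 with Flt3-L alone, with a log2 difference of -0.28 ± 0.11 (adjusted p = 0.215, limma). The groups did not overlap, and with the replicate number as a block in a fit of only these groups, whose equal numbers did pair, Mmp9 passed at adjusted p = 0.0347 (limma), which made 2 of 10, and its adjusted p ran up to 0.448 over the alternatives. At 48 h it gave 3592.6, 4428.0 and 4079.4 with CsA, against 4718.6, 4894.0 and 4954.0 with Flt3-L alone, a difference of -0.27 ± 0.11 (adjusted p = 0.21, limma). Groups of 3 other genes were apart at some early time without passing. Of the 10 genes, 1 was apart as higher and 1 as lower at 12 h, 1 and 3 at 24 h, and 0 and 3 at 48 h. The shares of all genes apart as higher and as lower were 12% and 16.3% at 12 h. They were 7.41% and 9.19% at 24 h, and 11.7% and 7.45% at 48 h. Chil3 gave 3927.3, 4253.4 and 3831.0 with CsA at 12 h, against 3514.0, 3533.1 and 3580.0 with Flt3-L alone, and 4328.5, 4464.4 and 4258.4 with CsA at 24 h, against 3828.0, 3998.9 and 3867.8 with Flt3-L alone. All CsA arrays were the higher ones at both times, with log2 differences of 0.18 ± 0.12 and 0.16 ± 0.12 (adjusted p = 0.359 and 0.695, limma). Mmp8 gave 5016.2, 4928.6 and 4837.4 with CsA at 24 h, against 5363.3, 5399.2 and 5587.4 with Flt3-L alone (-0.15 ± 0.08, adjusted p = 0.471, limma). S100a8 gave 5052.4, 5270.3 and 5269.2 with CsA at 48 h, against 5280.3, 5773.7 and 5375.5 with Flt3-L alone (-0.07 ± 0.10, adjusted p = 0.849, limma). For both, the CsA arrays were the lower ones. All 10 genes were among the brightest probe sets up to 48 h and compression of bright signals was not tested, so 95% intervals there describe signal and set no bound on RNA. The interval for S100a8 at 48 h was -0.28 to 0.13, for Ngp -0.23 to 0.29, for Ltf -0.12 to 0.17 and for Lcn2 -0.11 to 0.19. Median differences over the 10 were 0.04, 0.00094 and 0.0065 at 12 h, 24 h and 48 h, beside -0.04, -0.0063 and 0.02 over all genes.

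**Figure D4:**
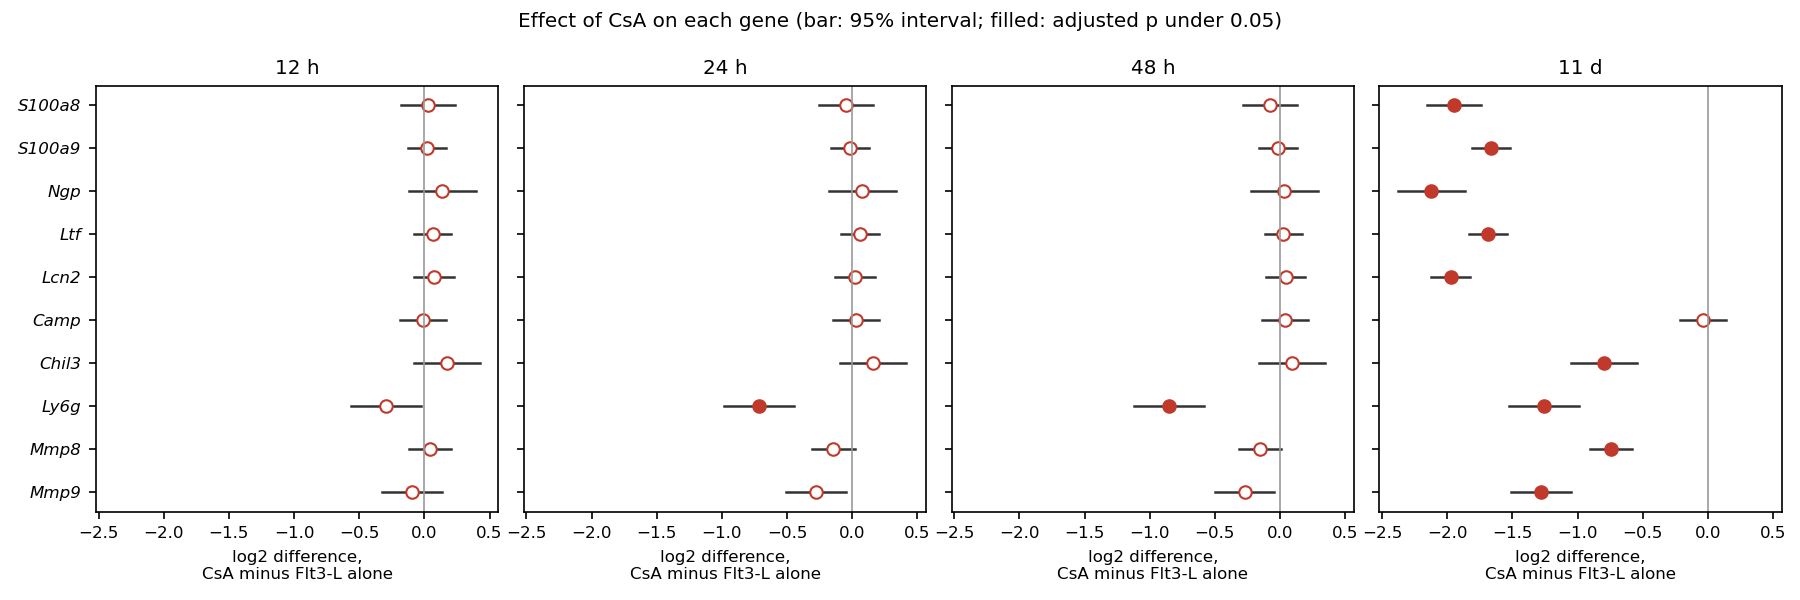
Log2 difference of CsA minus Flt3-L alone for each of the 10 genes, one panel per time; bars are 95% intervals of the limma fit and filled points have adjusted p under 0.05. Only Ly6g is filled at 24 h (-0.72) and 48 h (-0.85), none at 12 h, and all but Camp at 11 days.

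Of 13 receptor and late neutrophil genes, 5 were lower with CsA at 24 h and none passed as higher. Cxcr2 was at -0.69 ± 0.11, Trem1 at -0.60 ± 0.16, Csf3r at -0.49 ± 0.08 and Clec4d at -0.43 ± 0.06. Among all genes, 2.19% were lower with CsA at 24 h and 2.34% at 48 h. Leaving out single arrays moved the 5 to between 3 and 6; it was 3 without any 1 of Flt3-L 24 h replicates 1, 2 and 3 and CsA 24 h replicates 1 and 3. At 48 h, 2 were lower, Cxcr2 at -0.48 ± 0.11 and Csf3r at -0.37 ± 0.08, and 0 without CsA 48 h replicate 1 or 4 without CsA 48 h replicate 2. Ly6i, another Ly6 gene, was lower at 12 h, 24 h and 48 h (-0.87, -0.79 and -0.87), though not at 24 h without Flt3-L 24 h replicate 2 or CsA 24 h replicate 1, nor at 12 h with only the compared groups in the fit. Eosinophil, basophil and mast cell genes were lower in 6 of 8 cases at 24 h and 7 of 8 at 48 h. Their summed signal was 4608.6 to 4977.3 with CsA at 24 h, against 8372.8 to 9008.9 with Flt3-L alone. At 48 h it was 2900.4 to 3236.3 with CsA, against 4437.2 to 4808.6 with Flt3-L alone. Sums of other lists were also apart at both times. Over 7 B lineage genes the sum was 8444.5 to 10436.6 with CsA at 24 h, against 10928 to 12636.2 with Flt3-L alone, and 6376.1 to 7798.3 with CsA at 48 h, against 9332.3 to 10417.4 with Flt3-L alone. Over 10 conventional dendritic cell markers it was 6556 to 7106 with CsA at 24 h, against 7449.2 to 7949.3 with Flt3-L alone, and 8816.6 to 9192.9 with CsA at 48 h, against 10162.2 to 10920.7 with Flt3-L alone. Monocyte sums were lower with CsA at both times too, and erythroid sums higher, at 14539.4 to 16054.2 with CsA at 24 h, against 13251.2 to 14232.2 with Flt3-L alone. Whether these shifts bear on Ly6g was not tested.

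The CsA effect at 11 days differed from the mean of the 3 earlier effects for 9 of the 10 genes, all in the lower direction, as 6.7% of all genes did. The earlier effects were read at bright signals, whose compression was not tested. Differences of effects therefore describe signal and set no bound on RNA. The difference of effects was -2.20 ± 0.14 for Ngp, -2.02 ± 0.08 for Lcn2 and -1.91 ± 0.12 for S100a8. Ly6g had -0.64 ± 0.15 (adjusted p = 0.00507, limma), the smallest of the 9 in size, with an effect of -1.26 at 11 days and a mean of -0.62 earlier. Camp had -0.05 ± 0.10 (adjusted p = 0.763, limma). Averaged over the 4 times, 8 of 10 genes were lower with CsA, where 8.22% of all genes were, and the largest such mean was that of Ly6g (-0.78 ± 0.06). An F test of the 4 effects called the same count of 9 genes, against 18.8% of all genes, and Camp did not pass (adjusted p = 0.98, limma).

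Flt3-L alone was then set against unstimulated cells. This comparison shares the arrays of Flt3-L alone with the CsA comparison at each time. At 11 days all 10 genes were lower (limma), where 24.8% of all genes were. The median log2 difference was -4.69 over the 10 genes and 0.02 over all genes tested. Chil3 had a log2 difference of -6.77 ± 0.12, with signals as above at 11 days against 3601.5, 3631.0 and 3555.4 in unstimulated cells, and its readings at 11 days were not shown to lie above background. Ly6g had a log2 difference of -6.41 ± 0.13, against 5462.8, 5548.1 and 5370.2 in unstimulated cells. Camp was 71.3-fold lower (-6.16 ± 0.08). Neither the background of dim signals nor compression of bright ones was tested. Folds against unstimulated cells, here and below, therefore describe signal and set no bound on RNA.

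The S100 pair and lactoferrin lay between. Ltf was 35.8-fold lower (-5.16 ± 0.07), against 6903.8, 6849.1 and 6829.1 in unstimulated cells. S100a9 was 29.1-fold lower (-4.86 ± 0.07) and S100a8 22.8-fold lower (-4.51 ± 0.10). Lcn2 was 14.7-fold lower (-3.88 ± 0.07) and Ngp 9.96-fold lower (-3.32 ± 0.12). The metalloproteinases fell least, Mmp8 by 4.76-fold (-2.25 ± 0.08) and Mmp9 by 2.62-fold (-1.39 ± 0.11). For all 10 genes the 3 arrays at 11 days lay below the 3 unstimulated ones, which held for 26.7% of all genes.

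The wider granule programme fell as well in this comparison, and macrophage and dendritic cell markers rose. Of 9 primary granule genes, 8 were lower, Mpo by -6.09 and the cathepsin G gene Ctsg by -6.01 on the log2 scale. Of 15 further granule genes, 11 were lower and 4 higher (2 higher after renewed quantile normalization), the ficolin gene Fcnb at -5.05, the haptoglobin gene Hp at -5.00 and Cd177, a neutrophil surface protein, at -4.96. Of 13 receptor and late neutrophil genes, 9 were lower and 4 higher, with Retnlg at -5.73 and Cxcr2 at -5.50. Among 10 factors of granulocyte development, 6 were lower and 3 higher; Cebpe was at -3.24 ± 0.09 and Gfi1, a repressor needed for neutrophil maturation, at -1.89 ± 0.07, while Cebpa was at 1.82 ± 0.08. All 9 macrophage markers and all 10 conventional dendritic cell markers were higher, where 27.2% of all genes were. Their sums were 50656.7 to 51910 and 15442.3 to 16710.3 with Flt3-L alone at 11 days, against 5732.5 to 6673.2 and 5086.9 to 5162.7 in unstimulated cells. Of 20 metalloproteinase and inhibitor genes, 9 were higher and 3 lower, and the macrophage elastase gene Mmp12 was at 7.04 ± 0.13.

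In the first 48 h with Flt3-L alone, Ly6g, Camp and Ltf were the 3 of 10 genes that fell at each time, where 18.1%, 17.7% and 18.6% of all genes were lower at 12 h, 24 h and 48 h. Ly6g had log2 differences from unstimulated cells of -0.39, -0.60 and -0.92 (SE 0.13 each; adjusted p = 0.0203, 0.000568 and 2.07e-06, limma). The steps between these times did not pass for Ly6g. They were -0.21 at 24 h against 12 h and -0.32 at 48 h against 24 h (adjusted p = 0.416 and 0.103, limma). Camp had -0.26, -0.27 and -0.53 (SE 0.08 each; adjusted p = 0.0167, 0.0151 and 1.41e-05, limma), and its arrays read 5528.6, 5696.1 and 5157.7 at 48 h. Ltf had -0.32, -0.19 and -0.23 (SE 0.07 each; adjusted p = 0.000759, 0.0319 and 0.011, limma). At 12 h, 1 of 10 was left without unstimulated replicate 2, and at 24 h 1 was left without unstimulated replicate 2, unstimulated replicate 3 or Flt3-L 24 h replicate 3. Single calls of Camp, Ly6g and Ltf at 12 h and 24 h were also lost without other arrays, at adjusted p up to 0.111 (limma), while at 48 h all 3 held without any 1 array. Mmp9 did not pass at 48 h (-0.19 ± 0.11, adjusted p = 0.195, limma), but did with only the compared groups in the fit (adjusted p = 0.0325, limma), and its adjusted p ran between 0.0316 and 0.378 over the alternatives.

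Steps between neighbouring times show where the change fell. With CsA, Ly6g was lower at 24 h than at 12 h (-0.63 ± 0.13), the 1 of 10 that passed, where 8.23% of all genes were lower. At 48 h against 24 h, Ly6g (-0.45 ± 0.13) and Camp (-0.25 ± 0.08) were lower with CsA, where 9.24% of all genes were. The 2 fell to 0 without CsA 24 h replicate 3 or CsA 48 h replicate 1, and to 1 without CsA 24 h replicate 1, CsA 24 h replicate 2 or CsA 48 h replicate 2. With Flt3-L alone, 0 of 10 passed at 24 h against 12 h by limma or at an unadjusted p under 0.05, where 11.1% of all genes passed. At 48 h against 24 h, Camp was lower (-0.26 ± 0.08, adjusted p = 0.0362, limma), where 7.43% of all genes were. That call of 1 became 0 without any of 5 single arrays (all 3 at 24 h, replicates 1 and 3 at 48 h) and 2 without Flt3-L 48 h replicate 2. With only the compared groups in the fit, 2 genes passed. With the replicate block added to that smaller fit, where numbers did pair, 4 genes passed.

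From 48 h to 11 days all 10 genes fell in both kinds of culture. With CsA, where 19.3% of all genes were lower, the fall ran between 4.61-fold for Mmp9 and 100.1-fold for Ltf, leaving out Chil3 and Ly6g, whose dim signals with CsA at 11 days give no fold. S100a9 fell 85.0-fold, S100a8 76.7-fold and Ngp 42.4-fold. With Flt3-L alone, where 18.8% of all genes were lower, it ran between 2.29-fold for Mmp9 and 49.5-fold for Camp, leaving out Chil3. There S100a9 fell 27.1-fold, S100a8 21.0-fold, Ltf 30.6-fold and Ngp 9.53-fold. Camp fell 52.0-fold with CsA. With CsA at 11 days, Ltf read 49.9 to 66.1, S100a9 53.5 to 68.4 and S100a8 51.6 to 78.8. These signals lay little above the lower quartile of probe sets (44.3), so the folds of this step describe signal and set no bound on RNA.

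Ordered by mean level, all 10 genes had their lowest group at 11 days with CsA and their second lowest at 11 days with Flt3-L alone. Among the 7 groups up to 48 h, 60 pairs of neighbours in these orders were compared and 5 passed the test, so most of those orders are not resolved. For Ly6g the order from high to low was unstimulated, Flt3-L alone at 12 h, Flt3-L alone at 24 h, CsA at 12 h, Flt3-L alone at 48 h, CsA at 24 h and CsA at 48 h. The neighbours Flt3-L alone at 24 h and CsA at 12 h did not differ beyond their spread, nor did CsA at 12 h and Flt3-L alone at 48 h. Flt3-L alone at 12 h and at 24 h did not pass the test either (adjusted p = 0.416, limma). CsA at 24 h was below Flt3-L alone at 48 h by the same test.

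The genes tracked each other closely over the 9 group means, largely through the fall at 11 days that they share. Each gene's correlation with the mean of the other 9 was between 0.9671 for Mmp9 and 0.9993 for Mmp8. The lowest correlation of any 2 was that of Camp and Mmp9 (0.924). Outside the 10, among 3741 genes whose group means spanned at least 1 log2 unit, Atp2a3, an endoplasmic reticulum calcium pump gene, had the most similar course (r = 0.9987 over 9 group means, 0.9971 over 27 arrays). Next came Ly6a2 (0.9985), Pglyrp1 (0.998), Retnlg (0.998), Alox5 (0.9973), Rab27a (0.9971), Gapt (0.9965), Ifitm6 (0.9965), Il1f9 (0.9963) and Rasgrp4 (0.9963). These are descriptions over groups that share cultures and times.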

How the data were processed

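Per the submitters' processing notes, the authors made the deposited intensity values with RMA, of no stated version. The scale is linear, and log2 was taken first. RMA subtracts background by a model and puts all arrays on one distribution. Of 28815 probe sets, 21780 had a single symbol in the platform's annotation, and the probe set with the highest mean was kept for each of 19935 genes. Compression of bright signals and the background of dim ones were not tested.

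The model had 9 group means over 27 arrays (limma 3.58.1, R 4.3.3), with Benjamini-Hochberg adjustment over all genes and a threshold of 0.05, after a check on simulated data. All groups shared a single estimate of the spread per gene, from which SEs and intervals come. The number of arrays limits the precision. Alternatives were a variance trend with robust fitting, quantile normalization, median subtraction, a filter on dim genes, the mean of probe sets, array weights, only the groups compared, a replicate block and leaving out each array. Replicate numbers were taken to pair arrays where all 3 correlations of equal numbers, as deviations from group means over genes, exceeded 0.1. They did for CsA against Flt3-L alone at 24 h (lowest 0.346) and 48 h (lowest 0.178), for Flt3-L alone against unstimulated cells at 12 h (lowest 0.103) and 24 h (lowest 0.126), and for Flt3-L alone at 48 h against 24 h (lowest 0.405). The labels state no pairing, so the model reported has no block.

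The 10 genes and all lists were chosen with earlier results of these data known. By rule, all 10 genes are named, up to 4 called genes with the largest change in each list, and the 10 most similar genes; Csf3r and Cebpe in the CsA comparison at 11 days and Cebpa in that with unstimulated cells were added after their values were seen. Listed genes without a single-symbol probe set were left out.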

Additional observations from a re-analysis of the deposited data

Results flagged for a closer look

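The effect of CsA differed between 11 days and the mean of the 3 earlier times, by a limma contrast of the effects themselves, for 9 of the 10 genes. The difference of effects on the log2 scale was -1.91 for S100a8, -1.66 for S100a9, -2.20 for Ngp, -1.74 for Ltf, -2.02 for Lcn2, -0.94 for Chil3, -0.64 for Ly6g, -0.66 for Mmp8 and -1.07 for Mmp9. All 9 ran in the lower direction at 11 days, and Camp, at -0.05, was the gene without such a difference. The 3 earlier effects were read at bright signals, whose compression was not tested, so these differences describe signal only. At 11 days the dim signals of Chil3 (18.2 to 20.1 with CsA, against 25.4 to 47.4 with Flt3-L alone) and of Ly6g with CsA (22.2 to 33.4) lie where background on these arrays was not measured.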

How the results depend on the processing

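The 9 lower calls with CsA at 11 days, the Ly6g call at 24 h and at 48 h, and the 10 lower calls with Flt3-L alone at 11 days held without any 1 array. Leaving out single arrays moved the lower calls of Flt3-L alone against unstimulated cells to between 1 and 3 at 12 h and at 24 h, and the 48 h against 24 h counts to between 0 and 2 with Flt3-L alone and with CsA. With array weights, 1 gene was lower with CsA at 12 h, not 0. With a replicate block and the spread taken from the compared groups, 2 genes were lower with CsA at 24 h, 4 at 48 h against 24 h with Flt3-L alone and 4 with CsA; Chil3 at 11 days missed the threshold (adjusted p = 0.0504, limma, from 4.87e-07 upward over the alternatives), though numbers did not pair arrays there. With only the groups compared, Mmp9 was also lower with Flt3-L alone at 48 h than in unstimulated cells, without the block (adjusted p = 0.0325, limma) and with it (adjusted p = 0.0316, limma), where numbers did not pair arrays. The block changed no other call in comparisons whose numbers paired. For Flt3-L alone at 48 h against 24 h, 2 genes passed with trend and robust fitting, with the dim filter or with only the groups compared, not 1. With CsA, 1 passed after quantile normalization or array weights and 4 with only the groups compared, not 2. The cause of these changes was not tested.

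Signs turned only for differences near 0 that never passed. With CsA at 12 h, quantile normalization gave -0.021 for S100a8 and -0.034 for S100a9, and median subtraction 0.038 for Camp. With Flt3-L alone at 12 h, S100a8 became 0.038 after quantile normalization and 0.0099 with array weights. At 24 h, median subtraction gave -0.0045 for Ngp and -0.0097 for Lcn2. Leaving out single arrays gave, with CsA at 12 h, -0.077 to 0.030 for Camp, -0.016 to 0.066 for S100a9 and -0.00034 to 0.064 for S100a8; at 24 h, -0.056 to 0.014 for S100a9 and -0.0039 to 0.043 for Lcn2; at 48 h, -0.0018 to 0.075 for Ngp, -0.053 to 0.032 for S100a9 and -0.0050 to 0.074 for Camp; and at 11 days -0.19 to 0.044 for Camp. With Flt3-L alone it gave -0.020 to 0.029 for S100a8, -0.062 to 0.020 for Ngp and -0.026 to 0.0021 for Mmp8 at 12 h, and -0.015 to 0.067 for Ngp and -0.013 to 0.031 for Lcn2 at 24 h. The Camp difference of effects ran between -0.21 and 0.025. Array signal does not bound how low Chil3 and Ly6g are at 11 days.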

Other observations

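At 12 h with CsA, when none of the 10 genes passed the test, 3 of 7 genes for receptors of the secreted products were lower than with Flt3-L alone and none higher (limma), where 3.91% of all genes were lower. Cd14, the co-receptor of Toll-like receptor 4, was at -0.75 ± 0.11, and the lipoprotein receptor gene Lrp1, which also binds lactoferrin, at -0.32 ± 0.06 (log2 difference and SE, n = 3 arrays each). Slc22a17, described as a lipocalin 2 receptor, was at -0.35 ± 0.08. The summed signal of the 7 was 3243.4 to 3524.7 with CsA, against 3650.4 to 4161.6 with Flt3-L alone, and 1 of 7 was called with only the compared groups in the fit. Cd14 was lower at 24 h as well (-0.52 ± 0.11), while Lcn2, Ltf and the S100 pair did not pass at either time. Mmp14, a membrane-bound metalloproteinase and 1 of 20 in its list, was at -0.94 ± 0.14 at 12 h.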
